A study of Saccharomyces cerevisiae with 8 samples.

Results

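PSH1 and CAC2, the genes mutated in this study, were described together with the frames that flank them on chromosomes XV and XIII. The members were taken by locus name: PSH1 (YOL054W) with its neighbours THI20 (YOL055C) and AIM39 (YOL053W), and CAC2 (YML102W) with NUP188 (YML103C), CUE4 (YML101C) and YML101C-A. These are 7 of the 7126 features that the authors listed, and all 7 passed the filter on low values that left 6366 features for testing. RNA came from cultures of the budding yeast Saccharomyces cerevisiae of 4 genotypes, namely WT (strain GH69), a cac2 mutant (GH182), a psh1 mutant (GH72) and a psh1 cac2 double mutant (GH194), with 2 libraries each. Every culture, WT included, overproduced the centromeric histone H3 variant Cse4 for 10 h after galactose had been added to 4% to raffinose medium. No culture without Cse4 overproduction is analysed here, and each genotype is represented by a single strain. The sources used here give neither the means of inactivation nor the extent of the deletions nor a marker. The labels do not say whether the duplicate cultures were started from separate colonies, so p-values measure the spread between these cultures. Values are RPKM, in which a read count is divided by the length of the feature and by a library size, and a library held 30767522 to 34561763 reads in the listed features.

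Psh1 is a ubiquitin ligase that marks Cse4 for degradation and so keeps it away from chromosome arms. Cac2 is a subunit of chromatin assembly factor 1 (CAF-1), with Rlf2 and Msi1, which deposits histones H3 and H4 on newly replicated DNA. In the compact yeast genome, convergent genes often have transcripts that run into or across each other's ends, and neighbouring genes may share the stretch from which they are transcribed. Replacing a whole frame can therefore also alter the surroundings of the frames beside it.

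PSH1 lies on chromosome XV at 228614-229834 (+ strand) and AIM39 at 230085-231272 on the same strand, 250 bases downstream of the PSH1 stop codon. THI20 lies at 224420-226075 (- strand), 2538 bases away on the upstream side, with a pair of tRNA genes in between. CAC2 lies on chromosome XIII at 68294-69700 (+ strand). CUE4 at 69735-70088 (- strand) runs towards it, and 34 bases separate their stop codons. NUP188 at 62582-67549 (- strand) is transcribed away from CAC2 across a gap of 744 bases that also holds the snoRNA gene SNR85. All of these are single-exon genes in the RefSeq annotation of assembly R64, the assembly that the browser calls sacCer3.

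YML101C-A is not in that annotation, so its place was sought in the genome. The smallest length that made its values whole reads in all 8 libraries was 318 nt. In the 11339 bases from NUP188 to the end of TSL1 there was 1 frame of that length from ATG to stop on either strand, at 69409-69726 on the - strand. At that place 292 of its 318 bases lie inside CAC2, on the opposite strand, and 8 bases separate it from CUE4. The position is a match of length and neighbourhood, not an annotation.

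The sequences that show this arrangement follow, from the RefSeq genome R64, written 5′ to 3′ on the strand named. They show where the coding stretch of CAC2 ends, the same window read on the strand of YML101C-A, and the ends of YML101C-A and CUE4. Capitals mark stop codons.
CAC2, chrXIII:69641-69700, + strand: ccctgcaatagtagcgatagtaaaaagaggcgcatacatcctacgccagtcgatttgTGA
YML101C-A within CAC2, chrXIII:69641-69700, - strand: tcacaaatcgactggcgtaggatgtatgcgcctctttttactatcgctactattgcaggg
YML101C-A, chrXIII:69409-69468, - strand: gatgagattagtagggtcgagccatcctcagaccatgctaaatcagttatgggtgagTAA
CUE4, chrXIII:69735-69794, - strand: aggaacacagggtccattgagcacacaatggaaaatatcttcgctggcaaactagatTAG

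On its other side CUE4 faces YML100W-A, an uncharacterised frame at 70138-70311 (+ strand), across 49 bases. That interval is printed because values on both of its sides differed in strains without CAC2. Capitals mark the start codons, that of CUE4 being read on the opposite strand.
CUE4 to YML100W-A, chrXIII:70086-70140, + strand: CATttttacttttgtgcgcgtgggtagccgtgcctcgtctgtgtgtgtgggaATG

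For the PSH1 locus, the end of the coding stretch is given, and then the 250 bases between both genes together with the start of the AIM39 coding stretch. AIM39 is the adjacent frame there that was called, in psh1 against WT only, in a count near the background. Capitals mark the stop codon of PSH1 and the start codon of AIM39.
PSH1, chrXV:229775-229834, + strand: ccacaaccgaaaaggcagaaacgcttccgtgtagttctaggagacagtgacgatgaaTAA
PSH1 to AIM39, chrXV:229835-230134, + strand: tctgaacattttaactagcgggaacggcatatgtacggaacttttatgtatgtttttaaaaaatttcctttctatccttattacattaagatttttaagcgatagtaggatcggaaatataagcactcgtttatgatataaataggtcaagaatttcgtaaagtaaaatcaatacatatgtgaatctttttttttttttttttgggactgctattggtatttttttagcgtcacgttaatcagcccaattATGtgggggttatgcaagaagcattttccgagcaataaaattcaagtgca

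In WT all members were moderately or weakly expressed. NUP188 led at 43.8 and 40.4 RPKM, followed by THI20 at 33.5 and 33.8, PSH1 at 28.1 and 26.9, CUE4 at 24.5 and 30.2, CAC2 at 19.0 and 19.5, AIM39 at 11.3 and 13.1, and YML101C-A at 7.03 and 7.98. In this order only PSH1 and CUE4 overlapped between their libraries. Of the tested features 59.5% lay below NUP188 and 11.1% below YML101C-A by mean WT RPKM, so the members spanned the lower and middle part of the range.

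**Figure D1:**
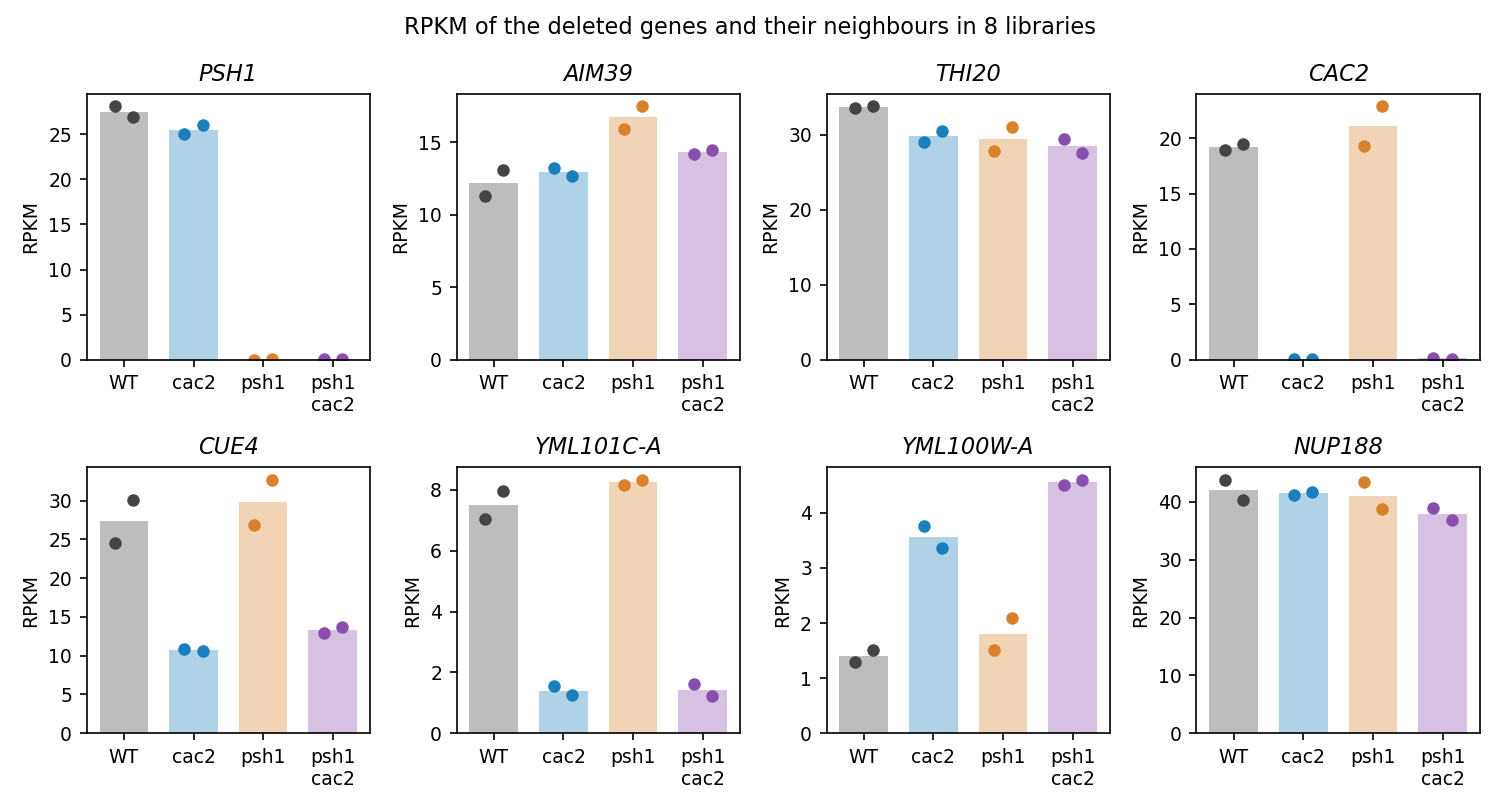
RPKM of the 7 members and of YML100W-A in each of the 8 libraries, on linear axes that start at 0; points are libraries (n = 2 a genotype) and bars their means. PSH1 and CAC2 sit at or near 0 in the strains that lack them, CUE4 and YML101C-A are low in cac2 and psh1 cac2, and YML100W-A is high there.

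Reads of each mutated gene were all but absent where the labels say it was mutated. PSH1 had 0 and 0.0457 RPKM in psh1 (0 and 2 reads) and 0.0494 and 0.0243 RPKM in psh1 cac2 (2 and 1 reads). Relative to WT this was 0.0849% in psh1 (95% exact binomial interval 0.0103 to 0.307%) and 0.134% in psh1 cac2 (0.0275 to 0.391%), where the intervals cover counting error only. CAC2 had 0.0233 and 0.0438 RPKM in cac2 (1 and 2 reads), or 0.176% of WT (0.0362 to 0.514%). In psh1 cac2 CAC2 had 0.150 and 0.0844 RPKM (7 and 4 reads), or 0.607% of WT (0.303 to 1.09%). All 8 libraries thus carried the genotype of their label at both genes.

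In the strain that lacked only the other gene, neither PSH1 nor CAC2 passed the test. PSH1 stood at 25.0 and 26.0 RPKM in cac2, a log2 difference from WT of -0.11 (SE 0.0922, limma adjusted p = 0.525, 95% interval -0.32 to 0.11). CAC2 stood at 19.3 and 22.9 RPKM in psh1, a difference of 0.12 (SE 0.115, adjusted p = 0.507, interval -0.14 to 0.39). Both intervals exclude a 2-fold change on this scale. Here and below, differences are on the scale of log2(RPKM + 1), which understates changes of low features.

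In cac2, CUE4 and YML101C-A fell while NUP188, THI20 and AIM39 did not pass the test. CUE4 encodes a small protein with a CUE domain, a fold that binds ubiquitin, and is a paralog of CUE1, a component of the degradation machinery of the endoplasmic reticulum. CUE4 had 24.5 and 30.2 RPKM in WT, 26.8 and 32.7 in psh1, 10.8 and 10.6 in cac2, and 12.9 and 13.7 in the double mutant. The 4 libraries without CAC2 were all below the 4 with it, whatever their PSH1 state. How many of all features separate by CAC2 or PSH1 state in this way was not counted, here and below. Mean RPKM of CUE4 in cac2 was 39.2% of WT, and the log2 change was -1.27 (SE 0.114, limma adjusted p = 0.000546).

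YML101C-A fell further. It had 7.03 and 7.98 RPKM in WT (70 and 87 reads), 1.54 and 1.26 in cac2 (15 and 13 reads), 8.16 and 8.34 in psh1 (89 and 95 reads), and 1.61 and 1.21 in psh1 cac2 (17 and 13 reads). The groups with and without CAC2 did not overlap, and the lowest library with CAC2 was above 4 times the highest without it. Mean RPKM in cac2 was 18.7% of WT and the log2 change was -1.82 (SE 0.129, adjusted p = 0.000546). At the matched position only 26 bases of this frame lie outside the CAC2 coding stretch. How much of that stretch the cac2 strains keep is not given, and its part in the fall of YML101C-A was not tested. Strand use during counting is not given, and how far reads of CAC2 enter the value of YML101C-A was not tested. Read counts of other opposite-strand frames are given below.

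The 2 frames that fell make up 2 of the 5 adjacent frames, beside 4.26% of all tested features called in cac2 against WT in either direction, 1.51% lower and 2.75% higher. This count includes YML101C-A, which at its matched position has 292 of its 318 bases inside CAC2. It is therefore not a neighbour separate from the mutated gene, and CUE4 is the only called frame that lies outside CAC2. Of the other frames in this comparison, THI20 had a difference of -0.17 (adjusted p = 0.193), AIM39 one of 0.08 (adjusted p = 0.577) and NUP188 one of -0.02 (adjusted p = 0.894). NUP188, the other neighbour of CAC2, had 41.3 and 41.7 RPKM in cac2 between its WT values. Its 95% interval of -0.19 to 0.15 excludes a change of the size seen at CUE4.

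The double mutant gave the loss of CAC2 a second time, in cells without PSH1. The comparison with psh1 shares no library with that of cac2 and WT, but both use the spread estimated over all 8 libraries. In psh1 cac2 against psh1, CUE4 fell by 1.10 (SE 0.114, limma adjusted p = 0.000571) and YML101C-A fell by 1.94 (SE 0.129, adjusted p = 9.87e-05). Again 2 of 5 adjacent frames were called, beside 23.5% of all features in either direction and 12.2% lower. This count again includes YML101C-A, most of which lies inside CAC2 at its matched position. Against WT, psh1 cac2 had CUE4 at -0.98 (SE 0.114, adjusted p = 0.00454) and YML101C-A at -1.82 (SE 0.129, adjusted p = 0.000955), beside a background of 6.05% in either direction, 2.18% lower and 3.86% higher. The CUE4 call against WT was lost without psh1 cac2 replicate 2 (-1.02, adjusted p = 0.0548). In that setting 13 features were called among all that were tested, against 385 with all libraries.

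The size of the CAC2-linked differences did not depend detectably on PSH1. The interaction, that is, the change upon CAC2 loss without PSH1 minus that with PSH1, was 0.16 for CUE4 (SE 0.161, adjusted p = 0.682, 95% interval -0.21 to 0.54) and -0.12 for YML101C-A (SE 0.183, adjusted p = 0.807, interval -0.54 to 0.30). By limma 0 of 5 adjacent frames passed for the interaction and 1 had an unadjusted p under 0.05, namely AIM39. Among all tested features 1, or 0.0157%, was called at the adjusted threshold, and the share at an unadjusted p under 0.05 was not counted. CUE4 was slightly higher in psh1 cac2 than in cac2 (0.28, interval 0.02 to 0.55), which did not pass (adjusted p = 0.184).

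**Figure D2:**
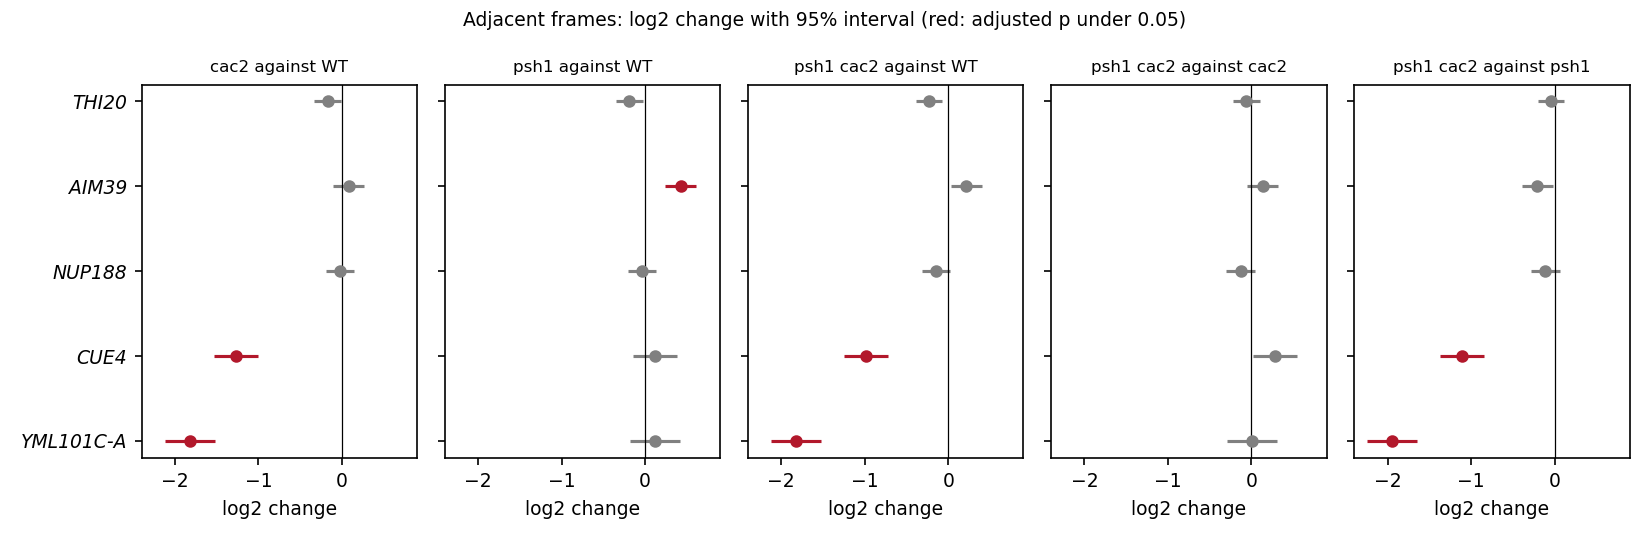
Log2 change of RPKM + 1 for the 5 adjacent frames (rows) in 5 comparisons (panels), with 95% intervals from limma; red marks an adjusted p under 0.05. CUE4 and YML101C-A are red in the 3 panels where CAC2 differs, and AIM39 is red only in psh1 against WT (0.42).

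The levels of YML101C-A and CUE4 did not drop in proportion. Per length, YML101C-A stood at 28.6 and 26.5% of CUE4 in WT and at 30.4 and 25.5% in psh1. It stood at 14.3 and 11.9% in cac2 and at 12.5 and 8.88% in psh1 cac2. The share was lower in each library without CAC2 than in any library with it. At its matched position all but 26 bases of YML101C-A lie inside CAC2, while CUE4 lies outside it. The ratio is therefore not separate from the state of CAC2 itself, and the part of this overlap was not tested. This ratio was formed after the values had been seen and was not tested.

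**Figure D3:**
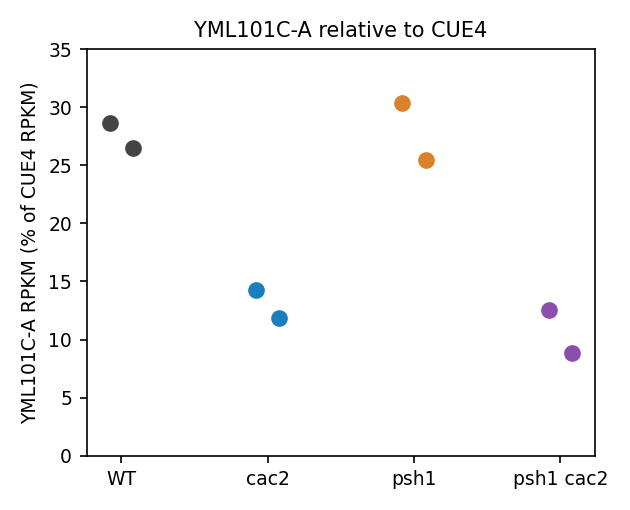
RPKM of YML101C-A as a percentage of the RPKM of CUE4 in each library, 2 points a genotype, on a linear axis from 0. The 4 libraries with CAC2 lie between 25.5 and 30.4%, and the 4 without it between 8.88 and 14.3%.

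Beyond CUE4, the next frame on that side rose. YML100W-A had 1.28 and 1.51 RPKM in WT (7 and 9 reads), 3.76 and 3.36 in cac2 (20 and 19 reads), 1.51 and 2.08 in psh1 (9 and 13 reads), and 4.51 and 4.60 in psh1 cac2 (26 and 27 reads). Every library without CAC2 exceeded every library with it, though on few reads. Its log2 change was 0.93 in cac2 against WT (SE 0.146, adjusted p = 0.0108), 1.21 in psh1 cac2 against WT (adjusted p = 0.00454) and 1.00 in psh1 cac2 against psh1 (adjusted p = 0.0035). The call in cac2 was lost without WT replicate 1 (0.86, adjusted p = 0.0701) or cac2 replicate 1 (0.87, adjusted p = 0.0822), and that in psh1 cac2 against WT without psh1 cac2 replicate 2 (1.20, adjusted p = 0.0548). The frame after it, TSL1, a subunit of trehalose synthase, had cac2 values between its 2 WT values, and its difference of 0.00 did not pass (adjusted p = 0.995).

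Of the 8 reference features on each side of CAC2, which with CAC2 make 17, all were tested. In cac2 against WT 1 rose (YML100W-A) and 2 fell (CUE4, and CAC2 itself, which the genotype sets), beside 4.26% of all features called. The median of 0.04 was close to that of all features (0.00). The same 3 features were called in psh1 cac2 against WT, beside 6.05% of all features, with a median of 0.00 beside -0.01. In psh1 against WT 1 of 17 was called, YML108W (-0.27, adjusted p = 0.0381), beside 14.5% of all features. YML108W had 48.4 and 43.6 RPKM in WT, 48.3 and 44.7 in the double mutant, which lies in the range of WT, and 37.5 and 38.2 in psh1. Between psh1 cac2 and psh1 the 2 higher were YML100W-A and YML108W (0.29) and the 3 lower were CAC2, CUE4 and TSL1 (-0.69, adjusted p = 0.0391). That is 5 of 17 with CAC2 itself counted, beside 23.5% of all features, a share near the background. SNR85, in the gap between NUP188 and CAC2, had 26.1 and 16.9 RPKM in WT and 28.0 and 29.7 in cac2, a difference of 0.44 that did not pass (adjusted p = 0.19).

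At the PSH1 locus, AIM39 rose in psh1. AIM39 encodes a protein of unknown function, and its loss raises the frequency of mitochondrial genome loss. It had 11.3 and 13.1 RPKM in WT, 15.9 and 17.5 in psh1, 13.2 and 12.7 in cac2, and 14.2 and 14.5 in the double mutant. The 4 libraries without PSH1 were all above the 4 with it, and by less than for CUE4. The log2 change in psh1 against WT was 0.42 (SE 0.0802, adjusted p = 0.016), which makes 1 of 5 adjacent frames called, beside 14.5% of all features in either direction, 7.65% higher and 6.9% lower. A count of 1 in 5 is near that background.

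The AIM39 call rested on single libraries, since leaving out WT replicate 1 gave 0.33 (adjusted p = 0.0612) and leaving out psh1 replicate 2 gave 0.36 (adjusted p = 0.0852). The double mutant had AIM39 at 0.22 against WT (adjusted p = 0.155) and 0.14 against cac2 (adjusted p = 0.34, 95% interval -0.05 to 0.32), and neither passed. The interaction of -0.29 (interval -0.55 to -0.03) did not pass after adjustment either (adjusted p = 0.339). Comparing psh1 cac2 with cac2, limma called 0 of 5 adjacent frames, beside 0.895% of all features in either direction, 0.393% higher and 0.503% lower. At an unadjusted p under 0.05 there was 1 frame (CUE4), and the share of all features at that level was not counted.

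THI20, the neighbour of PSH1 on the upstream side, encodes an enzyme of thiamine synthesis, degradation and salvage. It had 33.5 and 33.8 RPKM in WT, 27.9 and 31.1 in psh1, 29.1 and 30.5 in cac2, and 29.5 and 27.6 in the double mutant. All mutant libraries were below both WT libraries, but no difference passed, the log2 values being -0.17 for cac2 (adjusted p = 0.193), -0.19 for psh1 (adjusted p = 0.103) and -0.23 for the double mutant (adjusted p = 0.0902). These 3 comparisons share the WT libraries. With values scaled to total reads, which lowers cac2 by 0.13 and psh1 cac2 by 0.08 over all features, THI20 passed in cac2 (-0.30, adjusted p = 0.0273) and in psh1 cac2 (-0.31, adjusted p = 0.037). That scaling called 1352 and 657 of the 6366 tested features in these comparisons, against 271 and 385 in the main setting.

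NUP188 encodes a large scaffold protein of the inner ring of the nuclear pore. Its level was 43.4 and 38.7 RPKM in psh1 and 39.0 and 36.8 in psh1 cac2, and the libraries of all 4 genotypes lay between 36.8 and 43.8 RPKM. No comparison passed, the value farthest from 0 being -0.15 in psh1 cac2 against WT (adjusted p = 0.252). When scaled to total reads, NUP188 (-0.24, adjusted p = 0.0274) and AIM39 (-0.33, adjusted p = 0.0174) passed in psh1 cac2 against psh1, where this scaling shifts the median of all features by -0.13. It called 2621 of the 6366 tested features in this comparison, against 1493 in the main setting.

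Of the 17 reference features around PSH1, 15 were tested, the pair of tRNA genes upstream of PSH1 having no match among the listed features. In psh1 against WT 1 rose (AIM39) and 1 fell (PSH1 itself, which the genotype sets), beside 14.5% of all features called. With PSH1 left out, AIM39 is the only call, which is not above the background. The median over the 15 tested features, PSH1 included, was -0.08 beside 0.00 for all features. The double mutant against WT had 2 that fell, PSH1 and the snoRNA SNR81 (-0.99, adjusted p = 0.0441), 4511 bases beyond the PSH1 stop codon, beside 6.05% of all features. SNR81 was also called in psh1 cac2 against psh1 (-0.78, adjusted p = 0.0418) and did not pass in psh1 against WT (-0.21, adjusted p = 0.569). In cac2 against WT 0 of the 15 passed by limma, beside 4.26% of all features called. At an unadjusted p under 0.05 there were 5, and the share of all features at that level was not counted.

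**Figure D4:**
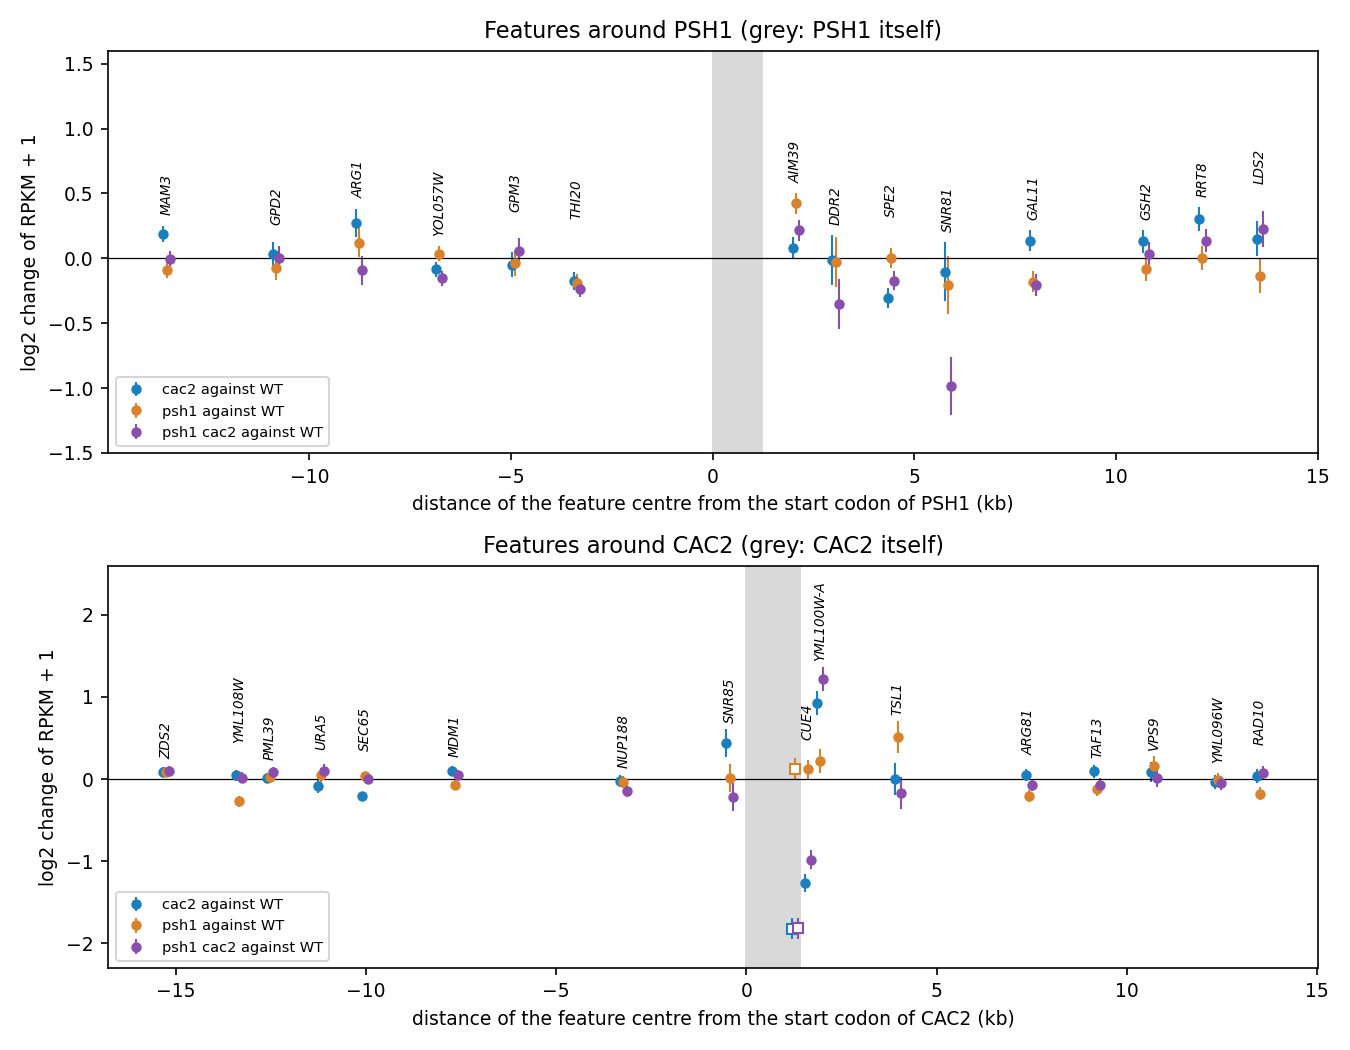
Log2 change of RPKM + 1 with its limma SE for tested features on either side of PSH1 (upper panel) and CAC2 (lower panel), by distance in kb from the start codon; the mutated gene itself is left out and shaded grey, and open squares are YML101C-A at its matched position. The shifts around CAC2 lie at CUE4, YML101C-A and YML100W-A, from -1.82 to 1.21 in cac2 and psh1 cac2, and AIM39 in psh1 (0.42) lies beside PSH1.

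Grouping the libraries by the state of 1 gene gives 4 against 4, for which an exact permutation test can reach p = 0.0286 at the lowest. Of the 10 two-sided tests (5 frames by 2 genes) 3 gave this value. This value marks groups that do not overlap, and how many of all features reach it was not counted. Without CAC2, CUE4 was lower by a difference of -1.19 and YML101C-A by -1.88 on the log2 scale, each in 4 of 4 libraries, and without PSH1 AIM39 was higher by 0.28 in 4 of 4 libraries. Adjusted over the 10 tests each had p = 0.0952 in the exact test, so none passed. The other 7 exact tests gave p from 0.143 to 0.686.

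Other frames that lie on the opposite strand inside a gene were read for comparison. YOL050C, matched inside GAL11 over 304 of its 321 bases, had 0 to 11 reads a library where GAL11 had 4538 to 5983. YML094C-A, matched inside GIM5 over 346 of 402 bases, had 3 to 6 reads beside 617 to 778, and YML099W-A, overlapping ARG81 by 161 of 330 bases, had 2 to 17 beside 2464 to 2891. In libraries with CAC2, YML101C-A had 70 to 95 reads beside 837 to 1155 of CAC2. These frames were chosen after values had been seen, and the part that reads of the opposite strand have in the value of YML101C-A or CUE4 was not tested.

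In the lists for CAF-1 and Cse4 turnover, the CUE domain and the nuclear pore, few genes were called. In the list of 26 genes of CAF-1, other H3 chaperones and Cse4 turnover, the calls in cac2 and psh1 against WT were CAC2 and PSH1 themselves, 1 lower in each, beside 4.26% and 14.5% of all features called, with medians of -0.02 and -0.01 beside 0.00 for all features in both. Against WT, 3 fell in psh1 cac2, the third being MSI1, a CAF-1 subunit (-0.24, adjusted p = 0.0415), with a median of -0.05 beside -0.01 and 6.05% of all features called. Against psh1, where 23.5% of all features were called, 2 fell in psh1 cac2, CAC2 and POB3 (-0.20, adjusted p = 0.0431), the latter encoding a subunit of the histone chaperone FACT. Of the 7 genes with a CUE domain, CUE4 alone was called, and it is itself a member. It was called in cac2 and psh1 cac2 against WT and in psh1 cac2 against psh1. The shares of all features called there were 4.26%, 6.05% and 23.5%, in that order. Of 15 nucleoporin genes listed with NUP188, 0 passed by limma in any comparison. Against WT, 0 in cac2, 0 in psh1 and 1 in the double mutant had an unadjusted p under 0.05. The shares of all features called in these comparisons were 4.26%, 14.5% and 6.05%, in that order. These shares are at the adjusted threshold, and those at an unadjusted p under 0.05 were not counted.

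Some thiamine genes were called, while THI20 did not pass. Of 21 genes for thiamine and the related pyridoxine pathway, 0 rose and 3 fell in psh1 against WT, namely the thiamine transporter gene THI7 (-0.52, adjusted p = 0.0154), THI13 (-0.40) and THI11 (-0.36), beside 14.5% of all features called. In cac2 against WT 1 fell, SNZ3 (-0.30), beside 4.26%. Both counts are near the background and are no result about thiamine genes. Against WT, 4 rose in psh1 cac2, led by THI12 (0.57), THI5 (0.53) and THI4 (0.40), and THI7 fell (-0.57), beside 6.05% of all features called. In psh1 cac2 against psh1 10 rose and 0 fell, led by THI12 (0.86), THI5 (0.77) and THI13 (0.77), beside 11.2% of all features called higher and 23.5% called in either direction. THI5, THI11, THI12 and THI13 are near-identical copies whose reads may be split, so they are not separate measurements.

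Likeness of pattern was measured as Pearson's r of log2(RPKM + 1) over the 8 libraries, as a description without a test. All features share these libraries and their scaling. PSH1 and CAC2 are near 0 or not by genotype, so r with either of them mainly restates the split of the libraries by that gene. Among the members, CAC2 and YML101C-A had r = 0.996, CAC2 and CUE4 0.977, and CUE4 and YML101C-A 0.973. CUE4 and YML101C-A also separate by CAC2 state, so their r may largely restate that split too. The features named next have the highest r among 5311 candidates with a symbol outside the members. High values are easily reached in such a search over 8 libraries. CUE4 was most like HMS1 (r = 0.995), IMP21 (0.986) and RNR2 (0.973). YML101C-A was most like MEP3 (0.985), RGT1 (0.983) and ERG5 (0.983), and CAC2 was most like ERG5 (0.986), HMS1 (0.981) and DEF1 (0.980). PSH1 was most like MRX6 (0.964), RAD26 (0.963) and RAD2 (0.959), and AIM39 most like FUN26 (0.965), MRK1 (0.965) and SMF2 (0.960). THI20 was most like GYP8 (0.940), MSI1 (0.905) and FLC1 (0.893), and NUP188 most like RGR1 (0.962), PSE1 (0.945) and POM152 (0.935).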

How the data were processed

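The authors deposited 1 table of RPKM values for 7126 features in 8 libraries of ribosome-depleted total RNA, made with a strand-specific kit per the labels' protocols. Build sacCer3 and the tools TopHat2 2.0.13, edgeR 3.14.0 and bcl2fastq 2.18 come from the submitters' processing notes. Which program counted reads, with which annotation and strand option, is not given in the sources used here. Multiplied by the RefSeq R64 length, 99.8% of RPKM values of the 6048 features matched by locus tag fell on whole reads (tolerance 0.01 reads). For 1068 features the smallest length that gave whole reads in all libraries was used instead. Reads and depth come from both, so these lengths also enter the library totals and the scaling to total reads. The size the authors divided by was 0.932 to 1.07 times the total of these reads. Columns were matched to samples by title, and 6169 features matched the annotation.

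Values were tested as log2(RPKM + 1), pseudocount 1, for the 6366 features whose mean RPKM reached 1, with limma 3.58.1 in R 4.3.3 (intensity trend, genotype as the only term, all 8 libraries), two-sided, adjusted by Benjamini-Hochberg over all tested features in a comparison, with a threshold of 0.05. A count model was not fitted, although reads had been recovered from the RPKM. The procedure was tested on simulated data. Exact permutation tests used scipy 1.17.1. Named genes are the members, up to 3 called genes each way from the gene lists, and the 3 features with a symbol most like each member; YML100W-A values under other settings, the ratio of YML101C-A to CUE4 and the opposite-strand frames were added after seeing the data. The members and lists were chosen with earlier results of these data known. Alternatives covered pseudocount, filter, scaling, samples in the model, replicate block and left-out libraries. Libraries of a genotype differed beyond sampling noise (chi-square per degree of freedom 26.4 to 44.8).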

Additional observations from a re-analysis of the deposited data

How the results depend on the processing

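Of 712 values for the members and YML100W-A under 16 alternatives, 687 kept their direction and side of the threshold, 6 lost a call, 4 gained one and 15 changed sign, none of the last with an adjusted p under 0.05 in either setting. The cause of these changes was not tested. YML101C-A in cac2 against WT ranged from -2.34 to -0.97 and CUE4 from -1.41 to -1.04, both past the threshold in every setting that tested them. With a mean RPKM of at least 10, YML101C-A is not tested, so 1 adjacent frame was called in cac2 and in psh1 cac2 against WT and in psh1 cac2 against psh1, and 2 features in the interaction. Scaling to total reads called 4 adjacent frames in psh1 cac2 against psh1 and 5 exact tests instead of 3 at an unadjusted p under 0.05, and 1352, 657, 140 and 2621 features in cac2 and psh1 cac2 against WT and in psh1 cac2 against cac2 and psh1. Without a filter 9 features were called in psh1 cac2 against cac2, and with quantile normalization 5 in the interaction. Fitting only the libraries of the 2 genotypes called 582 and 231 features in psh1 and psh1 cac2 against WT and 23 in psh1 cac2 against cac2.

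With a replicate block, 821, 1625 and 984 features were called in cac2, psh1 and psh1 cac2 against WT, 520 in psh1 cac2 against cac2 and 130 in the interaction, while the counts of adjacent frames did not change. Deviations of same-numbered libraries had correlations of 0.038 to 0.443 between genotypes, all above 0; the labels do not say what a number marks. Leaving out 1 library gave 153 to 253 features in cac2, 93 to 826 in psh1 and 13 to 373 in psh1 cac2 against WT, 2 to 32 and 502 to 1482 in psh1 cac2 against cac2 and psh1, and 1 to 41 in the interaction. It gave 0 to 1 adjacent frames in psh1 and 1 to 2 in psh1 cac2 against WT; a lone library left in a group is assumed to vary like the others.

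Signs changed with scaling to total reads for AIM39 in cac2 (-0.039) and NUP188 in psh1 against WT (0.016), and with quantile normalization for NUP188 in cac2 against WT (0.0028) and YML101C-A in psh1 cac2 against cac2 (-0.14). They also changed when 1 library was left out, the values then ranging from -0.017 to 0.18 for AIM39 in cac2, -0.078 to 0.037 for NUP188 in cac2, -0.12 to 0.042 for NUP188 in psh1 and -0.024 to 0.26 for CUE4 in psh1, all against WT. The ranges were -0.12 to 0.12 for YML101C-A in psh1 cac2 against cac2, -0.12 to 0.032 for THI20 in psh1 cac2 against psh1 and -0.24 to 0.0013 for YML101C-A in the interaction. Depth limits YML100W-A most, with 7 to 27 reads a library.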
